A study of Mus musculus with 9 samples.

Results

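The genes that build caveolae were described across 9 RNA sequencing libraries of cultured mouse hepatic stellate cells. The set holds the caveolins Cav1 and Cav2, the cavins Cavin1, Cavin2 and Cavin3, and Ehd2, and its members were chosen by symbol from a table of normalized read counts, with their levels in the 3 genotype groups already known. All 6 have a row among the 14020 genes of that table. Because the group levels themselves led to this choice, the levels and fold changes of the 6 genes are given as descriptions with no test. Numbers of members past the threshold used for all genes are also given, and nothing is read from them.

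Hepatic stellate cells are pericytes that line the sinusoids of the liver and, once activated, become contractile myofibroblasts that lay down matrix. The cells came from liver and were kept for 4 days in serum-containing medium under basal conditions, with 3 libraries in each of 3 groups. The groups are an Nbr1-Sqstm1 double knock-out (DKO), a Sqstm1 knock-out (KO) and wild type (WT). Sqstm1 encodes the autophagy receptor p62 and Nbr1 a related receptor, and both knock-out groups share the loss of Sqstm1. The labels name no Cre, promoter, clone, age or strain, and do not state whether a replicate is its own animal or its own culture. The series text speaks of biological replicates of an Nbr1 knock-out, whereas no library here is labelled with the loss of Nbr1 alone, so the p-values measure only the spread between these samples.

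Caveolae are small flask-shaped pits of the plasma membrane, abundant in endothelial cells, fibroblasts, adipocytes and muscle. Caveolins are cholesterol-binding membrane proteins that oligomerise in the pit, cavins coat it from the cytoplasm, and EHD2, an ATPase of the dynamin family, encircles the neck and holds the pit at the surface. Caveolae flatten when the membrane is stretched, and they are known as a reserve of membrane and as a platform for cholesterol and receptor signalling. In the liver they are best known in sinusoidal and other vascular endothelium, and they are also found in stellate cells and myofibroblasts.

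The promoters of the members whose group levels stood apart in at least 1 comparison are shown, because these are the genes the results turn on. Each is the 250 bases just before the transcription start in RefSeq (build GRCm38.p6, an earlier build than the GRCm39 named in the submitters' processing notes), written 5′ to 3′ on the strand of the gene. Of the 6 genes, 5 were matched, and Cavin3 has no entry. Cav1 and Cavin1 each have 2 listed starts, and only the start at the boundary of the gene was used. Their motif matches hold for that start alone. Capitals mark the matches, on either strand, of 3 motifs: the TEAD motif GGAATG, the AP-1 motif TGANTCA and the GC box GGGCGG. The CArG box, bound by serum response factor, was searched by name as well. No matches overlapped.
Cav1, chr6:17306085-17306334, plus strand: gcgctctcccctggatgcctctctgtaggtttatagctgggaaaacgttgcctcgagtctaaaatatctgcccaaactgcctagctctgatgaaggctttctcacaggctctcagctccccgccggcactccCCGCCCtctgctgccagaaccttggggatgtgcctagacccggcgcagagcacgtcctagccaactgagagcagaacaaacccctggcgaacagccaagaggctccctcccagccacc
Cav2, chr6:17280935-17281184, plus strand: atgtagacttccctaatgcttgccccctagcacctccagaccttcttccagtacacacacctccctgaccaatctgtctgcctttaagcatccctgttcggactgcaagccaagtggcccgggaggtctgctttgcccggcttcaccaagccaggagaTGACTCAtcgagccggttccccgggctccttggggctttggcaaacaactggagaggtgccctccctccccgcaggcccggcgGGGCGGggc
Cavin1, chr11:100970618-100970867, minus strand: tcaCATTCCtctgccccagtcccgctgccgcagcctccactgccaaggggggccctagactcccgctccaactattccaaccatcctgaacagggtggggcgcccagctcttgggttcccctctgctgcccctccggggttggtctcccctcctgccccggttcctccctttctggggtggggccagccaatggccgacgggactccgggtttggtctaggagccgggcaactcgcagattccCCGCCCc
Cavin2, chr1:51288876-51289125, plus strand: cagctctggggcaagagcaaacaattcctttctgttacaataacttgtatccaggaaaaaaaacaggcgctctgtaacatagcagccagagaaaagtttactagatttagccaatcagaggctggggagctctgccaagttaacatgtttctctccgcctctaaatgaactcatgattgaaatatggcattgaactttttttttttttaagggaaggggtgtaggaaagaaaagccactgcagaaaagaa
The GC box lies 118 bases before the start of Cav1, 9 before that of Cav2 and 7 before that of Cavin1, and 32.7% of 32851 mouse promoters of this length hold it. The AP-1 motif is present in Cav2, 92 bases before the start (6.75% of all promoters), and the TEAD motif in Cavin1, 247 bases before the start (12.6%). Cavin2 has none of these letters in the window, and none of the matched members has a CArG box (1.47% of all promoters). A match is a run of letters and not a measured site, and these libraries do not measure binding.

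The values rest on 819677 to 1467793 counted reads per library. The targeted Sqstm1 averaged 45.7 ± 17.7 normalized counts in DKO, 52.8 ± 29.8 in KO and 240 ± 16.1 in WT (SD, n = 3 each), and it has exons opposite exons of Mrnip. It fell in DKO against WT (log2 fold change -2.45, limma adjusted p = 0.00116) and in KO against WT (-2.30, limma adjusted p = 0.0023). Nbr1 averaged 90.7 ± 17.5 in DKO, 78.9 ± 8.85 in KO and 101 ± 7.64 in WT (SD, n = 3 each) and was not called in DKO against WT (-0.17, limma adjusted p = 0.735). Each value covers a gene as a whole, so a deletion of part of Nbr1 could go unseen: these values do not check the Nbr1 label, on which every direction drawn from DKO rests. KO replicate 3 stands apart: 18.5% of its reads fell in its 10 highest genes, a share that was 9.74% to 13.9% in the other libraries. The Y-linked gene Ddx3y averaged 49.0 in DKO and 73.5 in WT and had no read in any KO library, so Sqstm1 KO and the absence of Y-linked reads cannot be told apart in any comparison that involves KO. Of the Y-linked genes read, only Eif2s3y was called between DKO and WT. It averaged 15.1 ± 12.5 in DKO and 65.9 ± 5.84 in WT (SD, n = 3 each) and fell in DKO against WT (log2 fold change -2.34, limma adjusted p = 0.0162). Ddx3y, Kdm5d and Uty were not called there (log2 fold changes -0.58, -0.03 and -0.50, limma adjusted p = 0.353, 0.978 and 0.657).

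Summed markers of stellate cells, smooth muscle, and portal fibroblasts with mesothelium lay above WT without overlap in both knock-out groups. Those of endothelial cells did so in DKO alone and those of cholangiocytes in KO alone. No endothelial or cholangiocyte marker was called in any comparison. Of 12 stellate cell markers, 7 have a row (Des, Lrat, Reln, Lum and Ngfr do not), and their summed level ranged from 3391 to 5654 in DKO, from 4412 to 5190 in KO and from 1155 to 1230 in WT. Of these 7, limma called 5 higher in DKO than in WT, 2 higher and 1 lower in DKO than in KO, and 4 higher in KO than in WT. Of all genes tested, limma called 4.11% higher in DKO than in WT and 2.43% higher in KO than in WT. In DKO against KO it called 4.42% higher and 1.51% lower. Dcn, the matrix proteoglycan decorin, stood at 0, 3.01 and 0.606 in the WT libraries. Of 12 endothelial markers, 3 have a row and defining ones such as Pecam1, Cdh5 and Kdr do not, with sums of 108 to 201 in DKO, 60.9 to 191 in KO and 81.3 to 104 in WT. Of 7 smooth muscle markers, 5 have a row (Myh11 and Rgs5 do not), with sums of 304 to 408 in DKO, 584 to 832 in KO and 120 to 155 in WT. Of these 5, limma called 3 higher in DKO than in WT, 1 lower in DKO than in KO, and 4 higher in KO than in WT. The shares of all genes tested given above stand beside these counts too. The 3 of 8 macrophage markers with a row summed to 5.74 to 12.6 in DKO, 8.68 to 11.4 in KO and 3.77 to 13.6 in WT, and none of 8 hepatocyte markers has a row. The 2 of 5 cholangiocyte markers with a row summed to 25.8 to 49.1 in DKO, 29.2 to 34.7 in KO and 16.3 to 26.4 in WT. The 4 of 8 portal fibroblast and mesothelial markers with a row summed to 313 to 327 in DKO, 242 to 430 in KO and 176 to 225 in WT. All 4 of these were higher in DKO than in WT without overlap, but Thy1 and Wt1 were too low to be tested. Thy1 parted only as 1.91 in the lowest DKO library against 1.82 in the highest WT library. It had 10 reads in DKO and 6 in WT, and Wt1 had 15 and 0. Among all genes tested, 15.7% were higher in DKO than in WT without overlap. Of the 2 tested, Cd34, which has exons opposite Gm16897, was called higher in DKO than in WT (log2 fold change 2.37, limma adjusted p = 0.0284), a call lost without WT replicate 2 or 3 or any 1 DKO library (limma adjusted p of 0.0536 to 0.130).

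The part of these markers in the values of the caveola genes was not tested, and in bulk RNA fewer cells of a type and less RNA per cell cannot be told apart. Whether reads were counted on the strand of the gene is not given in the sources used here, and the table itself raises the question. Exons opposite an exon of a different gene were found for 71 of its top 100 genes matched to GENCODE release M21, but for 36.3% of the remaining matched genes. The protease gene Pcsk7, which lies opposite the contractile gene Tagln, averaged 10632 normalized counts over all libraries, far above the 271 of Tagln. Counting on the opposite strand was not tested, and it would change what each printed value measures, those of the caveola genes included. Of the 6 caveola genes, Cavin3 has exons opposite an exon of another annotated gene (Gm45667). Cav1 and Cav2 lie within Gm15581 on the other strand and Cavin2 within 9330175M20Rik, without exon overlap. Apart from Pcsk7 against Tagln and from sums and shares over several genes, levels are not compared between genes.

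The caveola genes did not share 1 pattern over the genotypes. Cav1 was highest in KO and lowest in DKO, Cavin2 was highest in KO and close to WT in DKO, and Cav2 and Cavin1 were low in DKO. Cavin3 and Ehd2 overlapped between all 3 groups. The plot of the 6 genes by library shows these shapes.

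**Figure D1:**
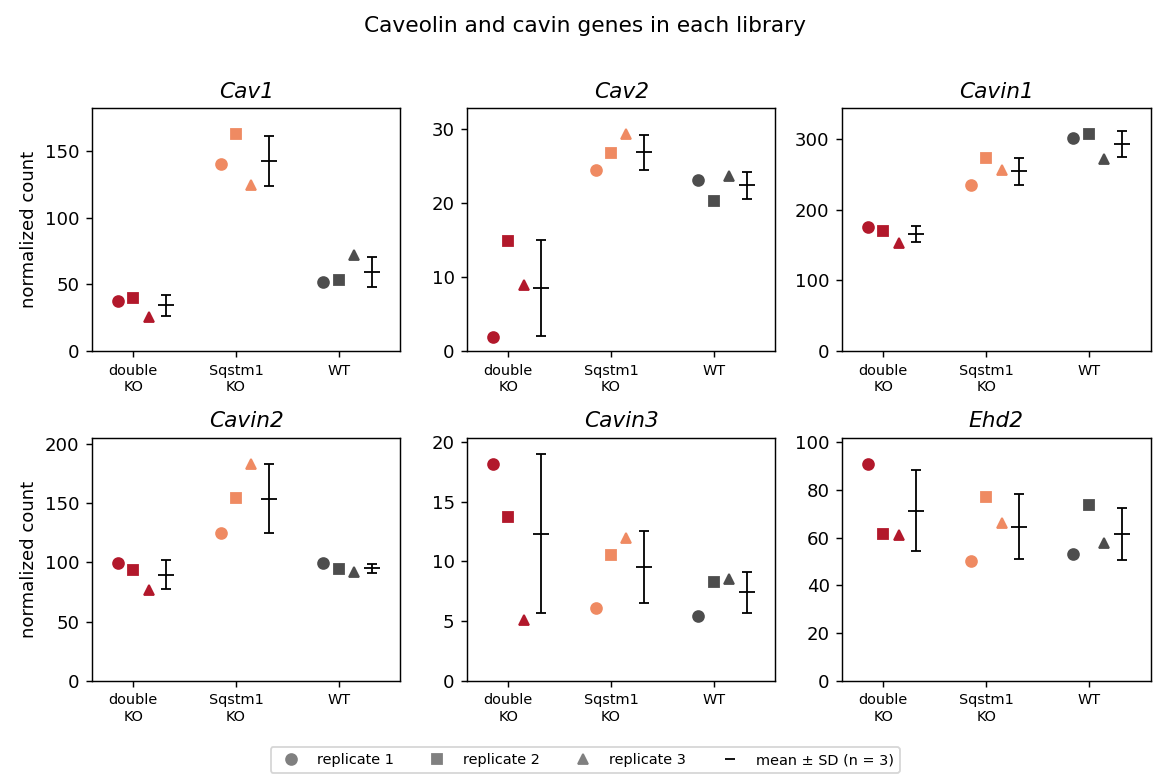
Normalized counts (vertical axes, linear, from 0) of the 6 caveola genes in each library of DKO, KO and WT, with 1 symbol per replicate number and bars for mean ± SD of 3 libraries. Cav1 lies at 125 to 162 in the KO libraries and at 72.2 or less in all others, and Cav2 has its lowest value, 1.91, in DKO replicate 1.

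Cav1 encodes caveolin-1, the main structural protein of caveolae outside striated muscle. It had 37.3, 40.0 and 25.5 normalized counts in the DKO libraries, 140, 162 and 125 in the KO libraries, and 51.8, 53.5 and 72.2 in the WT libraries. The 3 groups do not overlap: KO is highest, WT intermediate and DKO lowest, and both steps are larger than the SDs within the groups. The means were 34.2 ± 7.71 in DKO, 142 ± 18.9 in KO and 59.1 ± 11.3 in WT (SD, n = 3 each). They rest on 94 reads in DKO, 452 in KO and 228 in WT. On the log2(value + 1) scale KO lay 1.26 above WT (SE 0.27), a 2.40-fold level. DKO lay 0.78 below WT on that scale (log2 fold change -0.78, SE 0.27) and its difference from KO was -2.04 (SE 0.27), 0.243 times the KO level. Leaving out any 1 library kept these signs, with log2 fold changes of 1.16 to 1.41 in KO against WT, -0.90 to -0.59 in DKO against WT and -2.16 to -1.85 in DKO against KO. Without KO replicate 3 the values were 1.35 in KO against WT and -2.13 in DKO against KO.

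Cav2 encodes caveolin-2, which depends on caveolin-1 to leave the Golgi and forms mixed oligomers with it. It had 1.91, 14.8 and 8.92 normalized counts in the DKO libraries, 24.5, 26.8 and 29.3 in the KO libraries, and 23.2, 20.3 and 23.6 in the WT libraries. All DKO libraries lie below all others. The KO libraries lie just above the WT libraries, but the gap between the highest WT and the lowest KO library is smaller than the SD within either group. The DKO values come from 2, 13 and 7 reads, against 84 reads over the KO libraries and 83 over the WT libraries. For DKO replicate 1, the exact 95% Poisson interval of its 2 reads is 0.232 to 6.91 normalized counts, which lies below the interval of DKO replicate 2 (7.90 to 25.4). These intervals cover counting error only. The log2 fold change was -1.60 in DKO against WT (SE 0.51), -1.85 in DKO against KO (SE 0.51) and 0.25 in KO against WT (SE 0.51). DKO replicate 1 sets much of the size: without it the values were -0.90 in DKO against WT and -1.15 in DKO against KO. Without KO replicate 3 the value was 0.19 in KO against WT and -1.79 in DKO against KO.

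Cavin1 encodes cavin-1, the coat protein without which caveolae do not form. It had 175, 170 and 153 normalized counts in the DKO libraries, 235, 273 and 256 in the KO libraries, and 301, 307 and 272 in the WT libraries. The DKO libraries lie below all others, whereas KO and WT overlap through KO replicate 2 and WT replicate 3. The means were 166 ± 11.6 in DKO, 254 ± 19.0 in KO and 293 ± 18.4 in WT (SD, n = 3 each), from 452, 802 and 1077 reads. DKO stood at 0.567 times the WT level (log2 fold change -0.82, SE 0.22) and at 0.654 times the KO level (-0.61, SE 0.22). KO against WT was -0.20 (SE 0.22), less than its SE. Leaving out single libraries, KO replicate 3 among them, gave -0.87 to -0.76 in DKO against WT and -0.67 to -0.56 in DKO against KO.

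Cavin2 encodes cavin-2, a phosphatidylserine-binding coat protein that helps to shape caveolae in some tissues. It had 99.4, 93.6 and 76.4 normalized counts in the DKO libraries, 125, 154 and 183 in the KO libraries, and 99.4, 94.2 and 91.6 in the WT libraries. KO lies above both other groups, while DKO and WT overlap. The means were 89.8 ± 12.0 in DKO, 154 ± 29.4 in KO and 95.05 ± 4.00 in WT (SD, n = 3 each). The log2 fold change was 0.67 in KO against WT (SE 0.24), -0.76 in DKO against KO (SE 0.24) and -0.09 in DKO against WT (SE 0.24). KO replicate 3 has the highest value, and without it the first was 0.54 and the second -0.63. Cavin1 and Cavin2 thus stood in a different order of the groups, since DKO was the lowest of the 3 groups for Cavin1 and level with WT for Cavin2.

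Cavin3 encodes cavin-3, a coat protein that binds protein kinase C delta. It was the least read member, with 35 reads over the DKO libraries, 30 over the KO libraries and 29 over the WT libraries. It had 18.2, 13.7 and 5.09 normalized counts in the DKO libraries, 6.13, 10.6 and 11.9 in the KO libraries, and 5.45, 8.29 and 8.49 in the WT libraries. The groups overlap in every comparison, and DKO spans the widest range. The log2 fold changes were 0.53 in DKO against WT, 0.23 in DKO against KO and 0.30 in KO against WT (SE 0.51 each). Without KO replicate 3 the second was 0.40 and the third 0.13. Without DKO replicate 1, DKO against KO was -0.11, so no direction can be given for it at this depth.

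Ehd2, the neck ATPase, had 90.8, 61.6 and 61.1 normalized counts in the DKO libraries, 50.02, 77.1 and 66.2 in the KO libraries, and 53.1, 73.8 and 57.6 in the WT libraries. The groups overlap in every comparison, and DKO replicate 1 is the highest of the 9 libraries. The means were 71.2 ± 17.0 in DKO, 64.4 ± 13.6 in KO and 61.5 ± 10.9 in WT (SD, n = 3 each). The log2 fold changes were 0.20 in DKO against WT, 0.14 in DKO against KO and 0.06 in KO against WT (SE 0.28 each). Each is smaller than its SE. Without KO replicate 3 DKO against KO was 0.17, and without DKO replicate 1 DKO against KO was -0.05. Ehd2 rested on 197 to 232 reads per group.

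**Figure D2:**
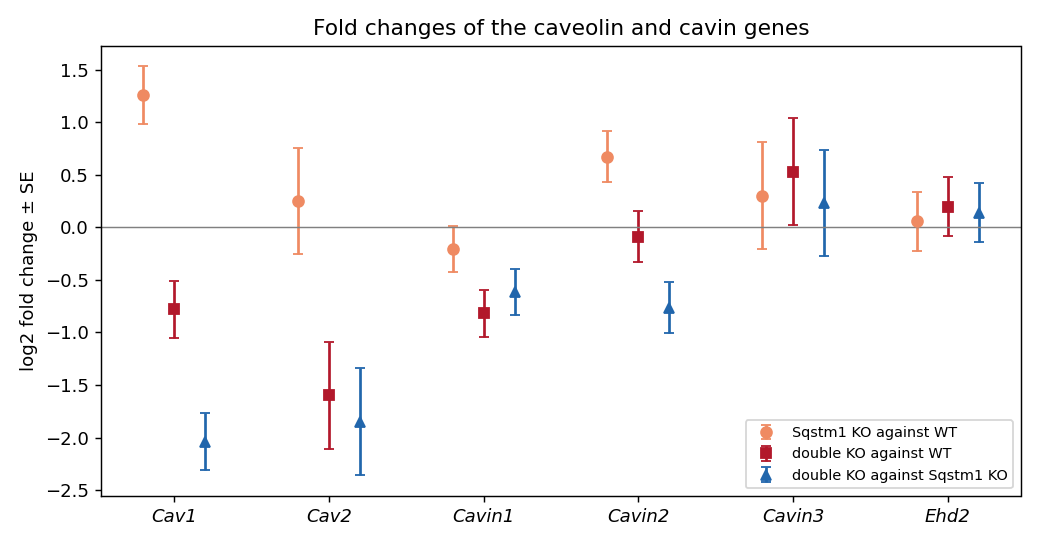
Log2 fold changes of the 6 caveola genes (vertical axis, log2(value + 1) scale) in DKO against WT, DKO against KO and KO against WT, with error bars for the SE of the linear model over all 9 libraries. Cav1 is at 1.26 in KO against WT and -2.04 in DKO against KO, and Cavin3 and Ehd2 lie within about 1 SE of 0.

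Set beside all genes, the members read as follows. A gene was called when its limma p-value, adjusted by Benjamini-Hochberg over all 10118 genes tested, was below 0.05, and all 6 caveola genes were among the genes tested. In DKO against WT, 1 of the 6 passed, Cavin1 on the lower side, while 2.31% of all genes tested were called lower and 6.42% in either direction. In DKO against KO, 2 of the 6 passed, Cav1 and Cav2, both lower, while 1.51% of all genes were called lower and 5.93% in either direction. In KO against WT, 1 of the 6 passed, Cav1 on the higher side, while 2.43% of all genes were called higher and 5.61% in either direction. Cavin1 stayed past the threshold in 10 of 19 alternatives in DKO against WT (not by edgeR or without the trend), and Cav2 in 6 of 18 in DKO against KO. Cav1 did so in 19 of 19 in DKO against KO and in 17 of 19 in KO against WT (not without WT replicate 1 or 2). Nothing is read from these counts or from how many alternatives kept them, because the same contrasts led to the choice of the genes.

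Without overlap between the groups, 3 of the 6 were lower in DKO than in WT (15.5% of all genes tested), 4 were lower in DKO than in KO (9.47%) and 3 were higher in KO than in WT (12.4%). The median log2 fold change of the 6 was -0.43 in DKO against WT, -0.69 in DKO against KO and 0.28 in KO against WT, and without KO replicate 3 the last 2 were -0.62 and 0.16. Over all genes tested the median was -0.02, -0.01 and -0.01 in the same comparisons. The comparisons share their groups, so they are not independent of each other.

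Ratios within a library show how the make-up of the set differed, since the gene length and the size factor of the library cancel when 1 ratio is compared across libraries. Cav1 per Cavin1 was 0.213, 0.235 and 0.167 in the DKO libraries, 0.596, 0.595 and 0.487 in the KO libraries, and 0.172, 0.174 and 0.265 in the WT libraries. DKO and WT overlap, and all KO libraries lie above both: although both genes were lower in DKO than in WT, their ratio was not. Cavin2 per Cavin1 was 0.568, 0.550 and 0.5 in the DKO libraries, 0.530, 0.565 and 0.716 in the KO libraries, and 0.330, 0.307 and 0.336 in the WT libraries. For this pair it is DKO and KO that overlap, and every library of both lies above every WT library. Cav1 per Cav2 was 19.5, 2.69 and 2.86 in the DKO libraries, 5.71, 6.06 and 4.26 in the KO libraries, and 2.24, 2.63 and 3.05 in the WT libraries. The high DKO value is that of replicate 1, where Cav2 had 2 reads. The other 2 DKO libraries fall within the WT range, and all KO libraries lie above it.

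**Figure D3:**
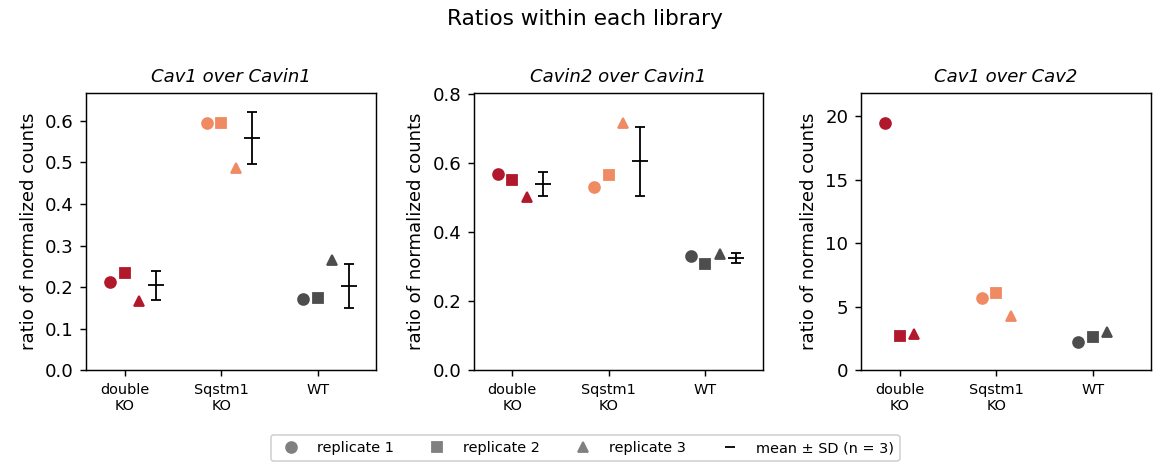
Ratios of normalized counts within each library (vertical axes, linear) for Cav1 per Cavin1, Cavin2 per Cavin1 and Cav1 per Cav2 in DKO, KO and WT, with 1 symbol per replicate number and mean ± SD of 3 libraries in the first 2 panels. Cav1 per Cavin1 sets KO (0.487 to 0.596) apart, Cavin2 per Cavin1 sets WT (0.307 to 0.336) apart, and the single high Cav1 per Cav2 ratio of 19.5 is DKO replicate 1.

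The summed level of the 6 genes was 382 ± 47.5 normalized counts in DKO, 652 ± 64.2 in KO and 539 ± 16.0 in WT (SD, n = 3 each). No library of 1 group reaches into another, with KO at 580 to 704, WT at 526 to 557 and DKO at 330 to 423. Cav1 made up 8.90% ± 1.21 of this sum in DKO, 21.9% ± 2.94 in KO and 11.01% ± 2.35 in WT (SD, n = 3 each). Cavin1 made up 43.6% ± 2.496 in DKO, 39.1% ± 1.23 in KO and 54.4% ± 2.37 in WT. The share of Cavin1 was therefore highest in WT, and that of Cav1 in KO. Normalized counts are not corrected for gene length, so these are shares of the counts and not of the transcripts.

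The other proteins of the caveola coat and neck were read from a list of 13 genes, of which 9 have a row and 7 were tested (Cav3, Pacsin1, Ehd3 and Ror1 have no row). None of the 7 was called by limma, edgeR or DESeq2 in any comparison. At an unadjusted limma p below 0.05 there were 0 in DKO against WT, 1 in DKO against KO and 0 in KO against WT. Of all 10118 genes tested, 2169, 1905 and 1959 had such a p in the same order, and the counts for the lists below stand beside these too. The median log2 fold change of the 7 was -0.35 in DKO against WT, -0.60 in DKO against KO and 0.18 in KO against WT.

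Ehd1, a paralogue of Ehd2 that acts in endocytic recycling, averaged 27.6 ± 6.34 normalized counts in DKO, 46.5 ± 13.9 in KO and 40.2 ± 7.07 in WT (SD, n = 3 each). The DKO libraries lie below the KO libraries without overlap (log2 fold change -0.72, limma adjusted p = 0.235). Ehd4, another paralogue, averaged 14.5 ± 6.49 in DKO, 27.2 ± 11.6 in KO and 19.3 ± 10.1 in WT (SD, n = 3 each) and overlapped in every comparison. Pacsin2, a membrane-bending F-BAR protein of the caveola neck, averaged 29.5 ± 7.15 in DKO, 48.5 ± 22.2 in KO and 44.1 ± 5.68 in WT (SD, n = 3 each), with DKO below WT without overlap (-0.58, limma adjusted p = 0.365). None of these differences passed the threshold.

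The dynamins that cut vesicles free gave no call either. Dnm1 averaged 13.8 ± 3.17 in DKO, 10.7 ± 5.56 in KO and 17.5 ± 0.194 in WT (SD, n = 3 each). Dnm2, which overlaps Tmed1 on the other strand, averaged 337 ± 63.0 in DKO, 469 ± 327 in KO and 285 ± 62.6 in WT (SD, n = 3 each). The large SD of Dnm2 in KO exceeds every difference between its group means.

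Flna encodes filamin A, the actin cross-linker that ties caveolae to stress fibres. It had 719, 799 and 683 normalized counts in the DKO libraries, 1330, 1455 and 539 in the KO libraries, and 603, 714 and 673 in the WT libraries. KO replicate 3 is the lowest of all libraries, and the other 2 KO libraries are the highest. With it, the log2 fold change was -0.47 in DKO against KO (limma adjusted p = 0.491) and 0.62 in KO against WT (limma adjusted p = 0.359). Without it, the values were -0.93 (limma adjusted p = 0.0218) and 1.07 (limma adjusted p = 0.00972).

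Cavin4, the cavin of striated muscle, and Pacsin3, a neck protein best known in muscle, stayed below the filter on low values. Cavin4 had 0, 0 and 1.27 normalized counts in the DKO libraries, 1.02, 4.06 and 0 in the KO libraries, and 4.09, 12.1 and 4.24 in the WT libraries. Its 1 read in DKO and 6 in KO, against 26 in WT, were too few to enter the test. Pacsin3, which overlaps Gm17281, averaged 6.83 ± 2.53 in DKO, 9.54 ± 0.785 in KO and 8.37 ± 3.39 in WT (SD, n = 3 each) and overlapped in every comparison.

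Genes that work with caveolae were read from 4 further lists. Of 12 signalling proteins that caveolin-1 is known to bind (such as Src, Igf1r and Tgfbr1), 11 were tested and none was called by limma in any comparison. At an unadjusted limma p below 0.05 there were 3 in DKO against WT, 0 in DKO against KO and 0 in KO against WT. By edgeR none of them was called, and by DESeq2 1 was, in DKO against WT. Their median log2 fold change was 0.04 in DKO against WT, 0.24 in DKO against KO and -0.26 in KO against WT, and the last 2 are opposite in sign to the medians of the caveola genes. All 13 genes of the clathrin coat and its adaptors, the other main route of endocytosis, were tested and none was called by limma, edgeR or DESeq2. At an unadjusted limma p below 0.05 there were 1, 2 and 2 of them in DKO against WT, DKO against KO and KO against WT. Their median log2 fold change was -0.06 in DKO against WT, -0.30 in DKO against KO and 0.16 in KO against WT.

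Of 9 raft proteins and cholesterol transporters, 7 were tested and 1 was called, Abca1, the exporter that loads cholesterol onto apolipoprotein A-I. Abca1 had 28.7, 40.0 and 31.8 normalized counts in the DKO libraries, 10.2, 13.0 and 4.34 in the KO libraries, and 40.9, 41.4 and 40.6 in the WT libraries. All KO libraries lie below all others, and DKO lies just under WT. Abca1 fell in KO against WT (log2 fold change -2.16, SE 0.37, limma adjusted p = 0.00327). It was higher in DKO than in KO (1.86, SE 0.37, limma adjusted p = 0.0077). In DKO against WT it was -0.30 (limma adjusted p = 0.703). Both calls held in all 18 alternatives, at -2.44 to -1.75 and 1.45 to 2.14. Abca1 was thus lowest in the group where Cav1 was highest. The median of the list was 0.04 in DKO against WT, 0.07 in DKO against KO and 0.01 in KO against WT.

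YAP and TEAD form a mechanically regulated transcription pathway for which caveola genes are known targets in other cells. Of 13 genes of this pathway, 12 were tested, and 1 was called in DKO against KO: Ankrd1, a muscle ankyrin repeat protein used as a YAP target. It had 100, 94.8 and 145 normalized counts in the DKO libraries, 232, 171 and 515 in the KO libraries, and 114, 127 and 141 in the WT libraries. KO lies above both other groups, and its highest library is KO replicate 3. The log2 fold change was -1.29 in DKO against KO (SE 0.35, limma adjusted p = 0.0443) and 1.10 in KO against WT (limma adjusted p = 0.0861). In KO against WT, edgeR and DESeq2 both called Ankrd1 higher. The call in DKO against KO was lost on leaving out any library except KO replicate 2, with limma adjusted p of 0.0557 to 0.148. Without KO replicate 3 it was -0.83 (limma adjusted p = 0.0557). The median of the list was 0.11 in DKO against WT, -0.15 in DKO against KO and 0.50 in KO against WT.

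**Figure D4:**
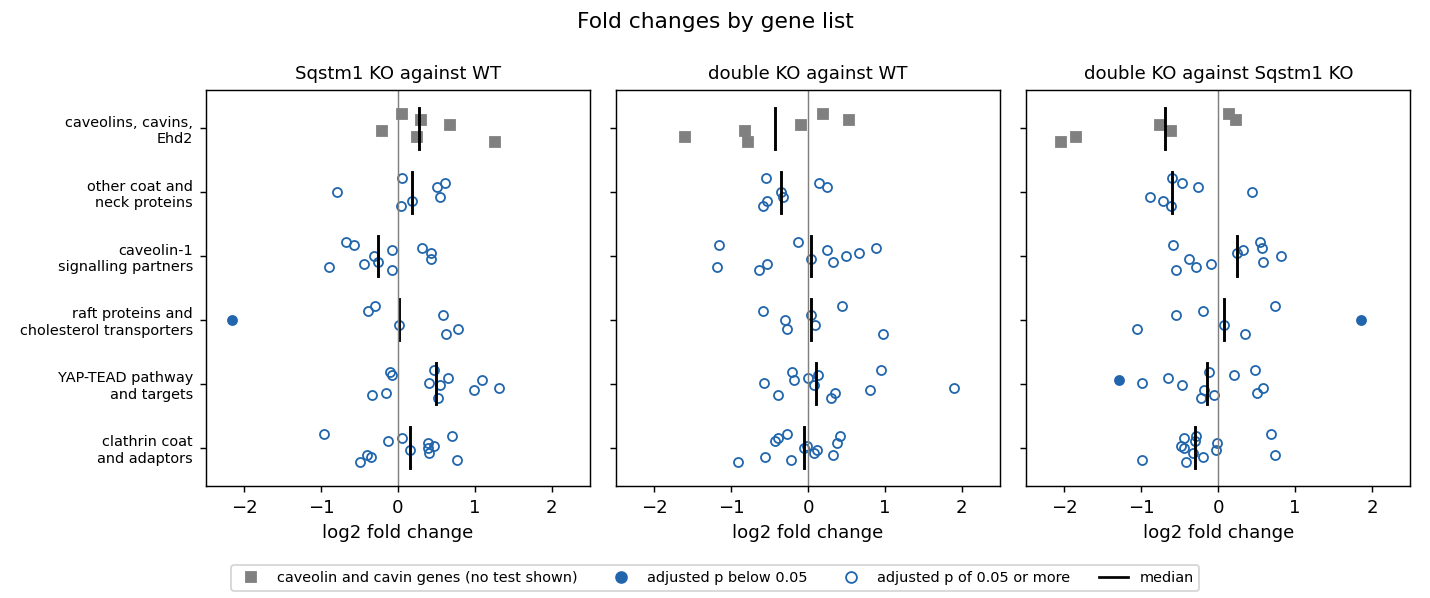
Log2 fold changes (horizontal axes) of the genes of each list in DKO against WT, DKO against KO and KO against WT. Grey squares are the 6 caveola genes with no test, filled blue circles are genes with a limma adjusted p below 0.05, and the other circles are genes above it; the blue circles are Abca1 and Ankrd1.

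Over the 5 lists together, 50 of 60 genes were tested. By limma, 0 were called in DKO against WT (7 at an unadjusted p below 0.05, 0 called by edgeR and 1 by DESeq2), 1 higher and 1 lower in DKO against KO, and 1 lower in KO against WT. Of all 10118 genes tested, 2169 had an unadjusted limma p below 0.05 in DKO against WT. Limma called 6.42%, 5.93% and 5.61% of all genes tested in the 3 comparisons. The medians of the 50 list genes were -0.01, -0.22 and 0.11 in the same comparisons. The members' medians are farther from 0 in all 3 comparisons, but the members were chosen for their levels and the list genes were not.

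The smooth muscle actins among the markers were highest in KO, as Cav1 and Cavin2 were, but not lowest in DKO. Acta2, smooth muscle actin and the usual sign of stellate cell activation, averaged 382 ± 145 in DKO, 819 ± 162 in KO and 84.5 ± 8.92 in WT (SD, n = 3 each). It rose in DKO and in KO against WT (log2 fold changes 2.10 and 3.25, limma adjusted p = 0.000459 and 1.62e-05) and fell in DKO against KO (-1.14, limma adjusted p = 0.0316). Actg2, another smooth muscle actin, averaged 73.7 ± 16.4 in DKO, 158 ± 14.3 in KO and 7.05 ± 1.13 in WT (SD, n = 3 each) and fell in DKO against KO (-1.11, limma adjusted p = 0.0298). Both were higher in DKO than in WT, whereas Cav1 and Cavin1 were lower there. The call in DKO against KO depended on single libraries: that of Acta2 was lost without WT replicate 2 or 3, KO replicate 2, or DKO replicate 1 or 3 (limma adjusted p of 0.053 to 0.146), and that of Actg2 without KO replicate 1 or 2 or DKO replicate 3 (limma adjusted p of 0.0881 to 0.148). Without KO replicate 3 the log2 fold changes were -1.05 for Acta2 and -1.19 for Actg2.

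The genes with the profile most like that of Cav1 were found by the root mean square distance between standardised log2 profiles over the 9 libraries, among 8653 genes. The nearest were Prepl (0.229), Aff3 (0.232), Sun2 (0.248), Hoxa10 (0.269) and Aars (0.286), against a median distance of 1.30 over all genes. Aff3, a nuclear protein of the AF4 family, averaged 1.02 in DKO, 24.3 in KO and 1.97 in WT. Sun2, which joins the nuclear envelope to the cytoskeleton, averaged 25.1 in DKO, 52.0 in KO and 34.7 in WT. All of these were highest in KO. Of the other members, Cavin2 was nearest to Cav1, at rank 74 (0.502), and Cav2 stood at rank 577 (0.775), Cavin1 at 899, Cavin3 at 4496 and Ehd2 at 5513.

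Among the genes nearest to Cavin1 were Kif18b (0.175), Adamts5 (0.177), Kmt5a (0.252) and Tmem181b-ps (0.272). Adamts5, an aggrecan-cleaving protease, averaged 59.2 in DKO, 200.3 in KO and 288 in WT, so the groups stood in the same order as for Cavin1 with a wider spacing. Of the members, Cav2 stood at rank 581 (0.733) from Cavin1, Cav1 at 1039 and Cavin2 at 2134 (1.03). Apart from Cavin2 near Cav1, the member nearest to either gene was thus Cav2, at ranks 577 and 581. Likeness over 9 libraries in 3 groups is a description of the profile and follows mainly the order of the group means.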

How the data were processed

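RNA was sequenced from 9 libraries of cultured mouse stellate cells, 3 per genotype. The deposited table holds normalized counts (a signal unit): gene read counts scaled by the authors with a size factor for each library. STAR, DESeq2 and the build GRCm39 are named in the submitters' processing notes, without versions; for strand, library kit, read counter and annotation, the setting was not given in the sources used here. All 121126 values above 0 were whole multiples of the worth of 1 read (100%, tolerance 0.01), so whole reads were recovered, at 819677 to 1467793 per library. Such totals are counted reads, and counting intervals (exact Poisson, 95%) cover counting error only. No column was left unused (0).

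The planned model was used: a limma fit (moderated, two-sided, trend by mean level) of log2(value + 1) on the 3 genotypes without covariates, with all 9 libraries and the 10118 genes that reached 10 normalized counts in 3 or more libraries. P-values were adjusted by Benjamini-Hochberg over those genes, with a threshold of 0.05, in 3 comparisons. The smallest p of an exact permutation test is 0.1 with 3 libraries in each group. Fold changes are on the log2(value + 1) scale, which understates those of low genes. The method was tested on simulated data, with changes set only in KO against WT and not in genes of low mean level. That run does not cover low genes such as Cavin3 or the comparisons with DKO. Members, gene lists and tests were chosen with earlier results of these data known. Named genes are the 6 members, Sqstm1 and Nbr1, the coat and neck list, and up to 4 called genes of each other list and comparison. The rule also names called cell type markers, up to 2 per list and comparison, and those printed were picked from them. It further names the 5 tested genes nearest to Cav1 and to Cavin1, predicted genes left out. Ddx3y, Eif2s3y, Kdm5d, Uty, Pcsk7, Tagln, Vps25, Ifi35, Atp6v0a1, Src, Igf1r and Tgfbr1 are outside this rule and were chosen after their values were seen. Some genes that this rule names are not reported here. Neighbouring and opposite-strand genes came from GENCODE release M21 (88.2% of genes matched by name), which is on an earlier build, as are the RefSeq promoters. Alternatives were other pseudocounts, filters and scaling, no trend, only the groups compared in the fit, edgeR's quasi-likelihood test and DESeq2 on the recovered reads, a replicate block and leaving out each library. The tools were limma 3.58.1, edgeR 4.0.16 and DESeq2 1.42.0, run in R 4.3.3.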

Additional observations from a re-analysis of the deposited data

How the results depend on the processing

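Among the genes followed singly, no direction of a called value turned under any alternative run. These were the members, Sqstm1, Nbr1, the coat and neck list, called list and marker genes, Vps25 and Ifi35. The directions of the other genes called were not checked. Genes called numbered 568 in KO against WT, 650 in DKO against WT and 600 in DKO against KO. On the recovered reads edgeR called 642, 735 and 614 and DESeq2 802, 880 and 716. A filter of at least 50 gave 290, 360 and 291. A fit of only the 2 groups compared gave 1229 in DKO against WT and 352 in DKO against KO. Leaving out 1 library gave 264 to 659, 294 to 1409 and 333 to 777 in the same order. Counts moved by over 1.5 times in KO against WT without WT replicate 1, 2 or 3 (283, 264 and 315), in DKO against WT without those (401, 294 and 328), KO replicate 3 (1409) or DKO replicate 1 or 3 (391 and 327), and in DKO against KO without DKO replicate 1 or 3 (381 and 333). List genes called numbered 1 in KO against WT, with 0 under the filter of at least 50 and 2 by edgeR, by DESeq2 and under the block. In DKO against WT there were 0, with 1 at a pseudocount of 4, 1 under quantile normalization, 3 with only the 2 groups fitted, 1 by DESeq2 and 1 under the block. In DKO against KO there were 2, with 1 under the filter of at least 50, 1 without the trend and 1 with only the 2 groups fitted. Leaving out 1 library gave 1 to 2, 0 to 4 and 1 to 4, with 4 in both cases without KO replicate 3. Nothing is read from the counts of members, because the same contrasts led to the choice of these genes. Members past the threshold numbered 1 in KO against WT (0 to 1 on leaving out 1 library, 0 without WT replicate 1 or 2). In DKO against WT there was 1, with 2 under quantile normalization, 0 without the trend and 0 by edgeR, and 0 to 3 on leaving out 1 library (3 without KO replicate 3, and 0 without WT replicate 1, 2 or 3, KO replicate 1, or DKO replicate 1 or 3). In DKO against KO there were 2, with 1 at a pseudocount of 0.5, 1 under the filter of at least 50, 1 without the trend, 1 with only the 2 groups fitted and 1 by edgeR, and 1 to 2 on leaving out 1 library (2 without DKO replicate 2, and 1 without any other). The members' medians stayed within 0.16 to 0.44 in KO against WT, -0.51 to -0.28 in DKO against WT and -0.79 to -0.60 in DKO against KO. Cavin1 moved to -0.35 in KO against WT and -0.96 in DKO against WT under quantile normalization. The cause of these shifts was not tested.

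The labels do not say whether the replicate numbers pair the samples, and the correlations do not settle it. Deviations of same-numbered libraries correlated at 0.0551 to 0.178 between KO and WT, against -0.212 to 0.122 for differently numbered libraries. Between DKO and WT the values were -0.115 to 0.144, against -0.258 to 0.261. Between DKO and KO they were 0.0627 to 0.145, against -0.188 to 0.0381, so there the same-numbered libraries were more alike. With the replicate number as a block, 690 genes were called in KO against WT, 754 in DKO against WT and 672 in DKO against KO. The few reads of Cavin3 and of Cav2 in DKO limit what could be detected for these genes. With 3 libraries a group, no test for a single outlying library was made.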

Other observations

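Cavin1 and Nbr1 lie on the same chromosome, 11, with 44 annotated genes between them, of which 19 were tested. Sqstm1 lies on chromosome 11 as well. In DKO against WT, 1 of the 19 was called by limma, edgeR and DESeq2, Vps25, which encodes an ESCRT-II subunit. Vps25 averaged 16.7 ± 9.91 normalized counts in DKO and 43.1 ± 4.12 in WT (SD, n = 3 each; log2 fold change -1.45, limma adjusted p = 0.0357). In KO against WT, limma and edgeR called 1, Ifi35, an interferon-induced gene that overlaps Gm11626, and DESeq2 called 2, Ifi35 and Atp6v0a1. Ifi35 averaged 11.1 ± 2.59 in KO and 30.2 ± 9.05 in WT (SD, n = 3 each; -1.34, limma adjusted p = 0.0406). In DKO against KO 0 were called by limma, edgeR or DESeq2, and 5 had an unadjusted limma p below 0.05. Of all 10118 genes tested, 1905 had such a p in DKO against KO. Limma called 6.42% of all genes tested in DKO against WT, 5.93% in DKO against KO and 5.61% in KO against WT. Both calls depended on single libraries: that of Vps25 was lost without WT replicate 1, 2 or 3 or DKO replicate 1 or 2 (limma adjusted p of 0.0896 to 0.147). That of Ifi35 was lost without any library but KO replicate 3 and DKO replicate 1 (limma adjusted p of 0.0515 to 0.179). The median log2 fold change of the 19 was -0.43 in DKO against WT, -0.06 in DKO against KO and -0.34 in KO against WT. The interval was chosen after the values of Cavin1 were seen, and no cause was tested.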
